A study of Mus musculus with 2 samples.

Results

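The microRNA genes Mir219a-1, Mir219a-2 and Mir338, and the genes Mir219b, Mir219c and Mir3065 that lie opposite them on the other DNA strand, were examined in the postnatal mouse hippocampus. They were chosen by name as the microRNAs of oligodendrocyte differentiation and their opposite-strand partners, and form 6 of the 2202 microRNA genes in the count tables. Small RNA below 30 nt was sequenced from total RNA of hippocampus from male B6CASTF1/J mice, F1 animals from C57BL/6J crossed to CAST/EiJ, at 10 days of age. The tissue label reads layer of hippocampus and names no layer. Both libraries belong to 1 group, each replicate is labelled with 3 males, and the labels name neither a treatment nor an engineered allele. The labels give the replicates separate animal numbers but 1 donor identifier, so part of the spread between them may be technical. The tissue was not sorted, so fewer cells of a type and less RNA per cell cannot be told apart in any level below.

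MicroRNAs are short RNAs cut from a hairpin precursor. They pair with target transcripts mainly through their seed, the bases from 2 to 8, and lower the output of those transcripts. miR-219 and miR-338 are known as microRNAs that accumulate when oligodendrocyte precursor cells leave the cell cycle and become myelin-forming cells. Known targets include Pdgfra, the growth factor receptor of the precursors, for miR-219, and the transcription factors Sox6 and Hes5 for both. In the mouse hippocampus, myelin forms largely after birth.

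The mature sequences are shown first because they set which reads could be counted. All 6 genes matched the RefSeq table (GRCm38.p6), which held 10 mature entries for them, or 9 distinct sequences. The seed is in capitals, and the 9 seeds all differ. Among the 1674 distinct mouse mature sequences of that table, no other sequence has any of these 9 seeds. The miR-219a-5p entry stands at 2 loci, Mir219a-1 and Mir219a-2. The table has no entry for a 3' product of Mir219a-2 or of Mir3065, so none is printed, which does not mean that none is made. The products it lists for the miR-219a and miR-338 hairpins are the following.
miR-219a-5p: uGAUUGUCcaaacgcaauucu
miR-219a-1-3p: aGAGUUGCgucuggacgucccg
miR-338-5p: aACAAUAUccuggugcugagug
miR-338-3p: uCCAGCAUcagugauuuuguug
The partners carry products from the complementary strand.
miR-219b-5p: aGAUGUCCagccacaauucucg
miR-219b-3p: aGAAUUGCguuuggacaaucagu
miR-219c-5p: gGACGUCCagacgcaacucucg
miR-219c-3p: cGAGAAUUgcguuuggacaauc
miR-3065-5p: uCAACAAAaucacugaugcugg
miR-3065-5p lies opposite miR-338-3p over 21 bases, and miR-219b-3p lies opposite miR-219a-5p of Mir219a-2 over 21 bases. Each partner hairpin lies whole within the reverse complement of its partner, so the strand of a read is what assigns it.

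Mir219a-2 lies at chr2:29845631-29845727 (mm10, as for all positions) on the minus strand and overlaps no other annotated gene than its partner. The nearest gene, Urm1, which encodes a ubiquitin-like modifier, ends 629 bases away. Mir219a-1 lies at chr17:34024983-34025092 on the minus strand, 303 bases from Ring1, a Polycomb gene, and partly overlaps an exon of the long noncoding RNA gene Gm26940 on that strand. The hairpins of Mir219a-2 and Mir219a-1 follow, with the longest stretch they have in common, 22 bases, in capitals.
Mir219a-2: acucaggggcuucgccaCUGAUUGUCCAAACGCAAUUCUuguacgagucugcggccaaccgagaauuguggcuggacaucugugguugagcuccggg
Mir219a-1: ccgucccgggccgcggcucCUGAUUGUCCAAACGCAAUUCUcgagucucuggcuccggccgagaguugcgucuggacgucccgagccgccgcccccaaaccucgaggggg
That stretch contains the whole of miR-219a-5p. A read that lies within it fits both genes, and reads that fit several places were not counted on any gene. Aligned end to end, the hairpins were identical at 72 of 114 alignment columns.

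Mir338 lies at chr11:120014765-120014862 on the minus strand, in an intron of Aatk, a gene for a kinase expressed in the nervous system, and is read in the same direction. Its hairpin is shown with miR-338-5p and then miR-338-3p in capitals.
Mir338: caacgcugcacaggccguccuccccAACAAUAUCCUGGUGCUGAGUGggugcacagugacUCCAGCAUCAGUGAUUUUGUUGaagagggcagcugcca
No window of 22 bases in this hairpin occurred in a GENCODE M21 transcript of another locus. At 18 bases 3 of 81 windows of Mir338 did, in Reck and Rxfp2. In Mir219a-2 1 of 76 windows of 22 bases did, and in Mir219a-1 1 of 89, each being the common stretch. A read longer than the 22 bases of that stretch would therefore tell the miR-219a genes apart at any place among these transcripts. Matches elsewhere in the genome were not analysed here.

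**Figure D1:**
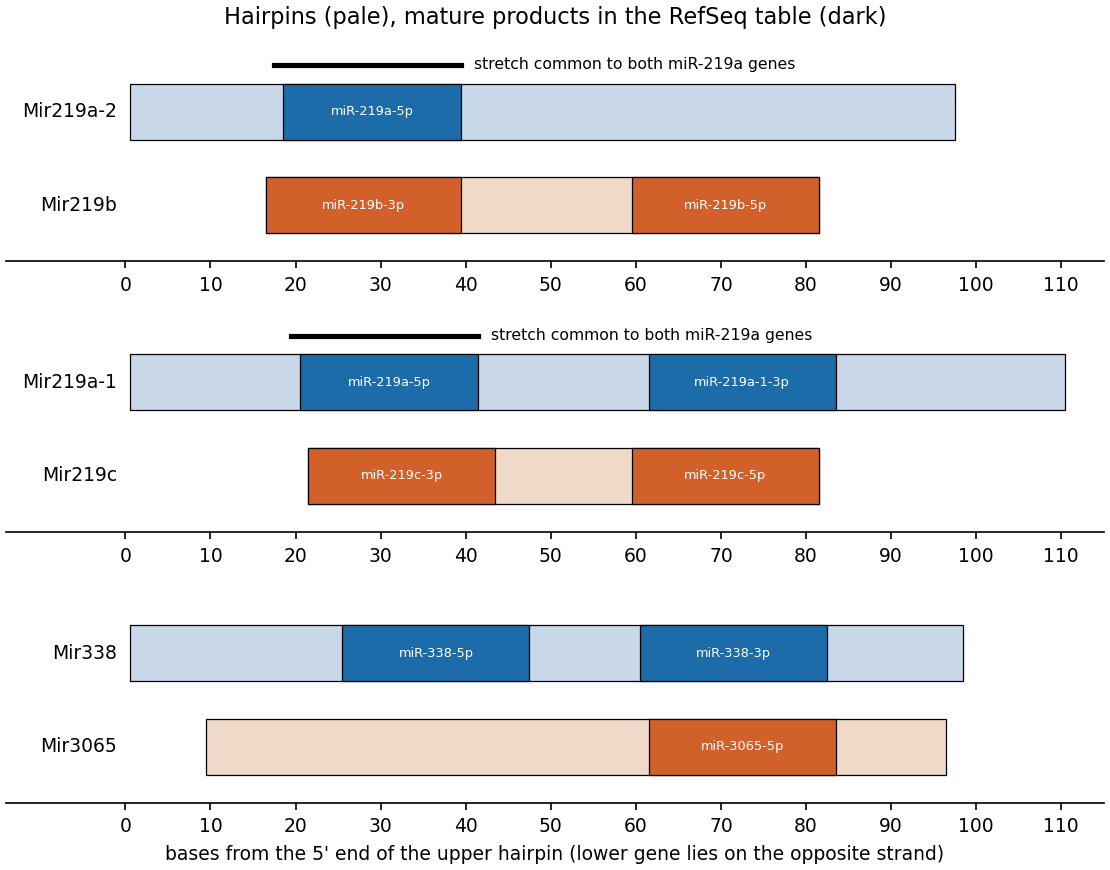
Map of the 3 loci, with the x axis in bases from the 5' end of the upper hairpin. Pale bars are hairpins, and dark bars are the mature products of the RefSeq table, which has no 3' entry for Mir219a-2 or Mir3065. The lower gene of each pair lies on the opposite strand. The black line marks the 22 bases common to Mir219a-2 and Mir219a-1, which cover miR-219a-5p.

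By RNAfold, the hairpins of the 3 minus-strand genes had lower predicted folding energies than those of their partners. Mir219a-2 had -48.2 kcal/mol against -18.8 for Mir219b, Mir219a-1 had -58.7 against -26.8 for Mir219c, and Mir338 had -41.9 against -39 for Mir3065. The partners are annotated as shorter hairpins, of 65, 60 and 87 bases against 97, 110 and 98. Per base, Mir219a-2 and Mir219a-1 were more stable than 83.3% and 89.8% of 968 hairpins. Mir219b was more stable per base than 9.09%, Mir219c than 67.3%, Mir338 than 59.8% and Mir3065 than 68.0%. For miR-338 the order of the pair was thus the opposite per base. The GC content of Mir219a-1 was 69.1%, above that of Mir219a-2 at 55.7% and Mir338 at 56.1%.

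The libraries held 4815761 counts on microRNA genes in replicate 1 and 3495401 in replicate 2. Reads that fitted several places made up 37.7% and 39.8% of all reads and are in no gene's count. Levels are in CPM, the counts of a gene per 1000000 counts on all genes of its library. A count of 0 allowed a level of 0.623 CPM in replicate 1 and of 0.858 CPM in replicate 2. Such limits, and the intervals given below, hold counting error alone. Of the 9 neuronal markers, the 3 most abundant, Mir132, Mir137 and Mir128-1, had mean levels of 7062, 4713 and 4439 CPM. They were picked by level and so are no check of the tissue. Mir128-2, Mir129-2 and Mir129-1 had means of 1847, 862 and 290 CPM. The Mir124a genes, also among the 9 markers, had means of 2.92 (Mir124a-1), 0.286 (Mir124a-2) and 0.987 CPM (Mir124a-3). They had at most 13 counts in a library, and their common mature sequence has several loci.

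Mir219a-2 and Mir338 were both within the top 143 microRNA genes by level, Mir219a-1 was far lower, and each partner had 5 counts or fewer in all. Mir219a-2 had 2738 counts (569 CPM) in replicate 1 and 3464 counts (991 CPM) in replicate 2, a mean of 779.8 ± 299 CPM (SD, n = 2). It ranked 131 and 118 among the 2202 genes. Mir338 had 2070 counts (429.8 CPM) in replicate 1 and 2551 counts (729.8 CPM) in replicate 2, a mean of 579.8 ± 212 CPM (SD, n = 2). It ranked 143 and 135. For both genes replicate 2 was the higher library.

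Mir219a-1 had 185 counts (38.4 CPM) in replicate 1 and 68 counts (19.5 CPM) in replicate 2, a mean of 28.9 ± 13.4 CPM (SD, n = 2). It ranked 256 and 289, and here replicate 1 was the higher library. The 6 genes together took 0.104% of counts in replicate 1 (95% exact Clopper-Pearson interval 0.101 to 0.107) and 0.174% in replicate 2 (0.170 to 0.179). Mir219a-2 made up 54.8% and 56.9% of this sum, and Mir338 41.4% and 41.9%.

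**Figure D2:**
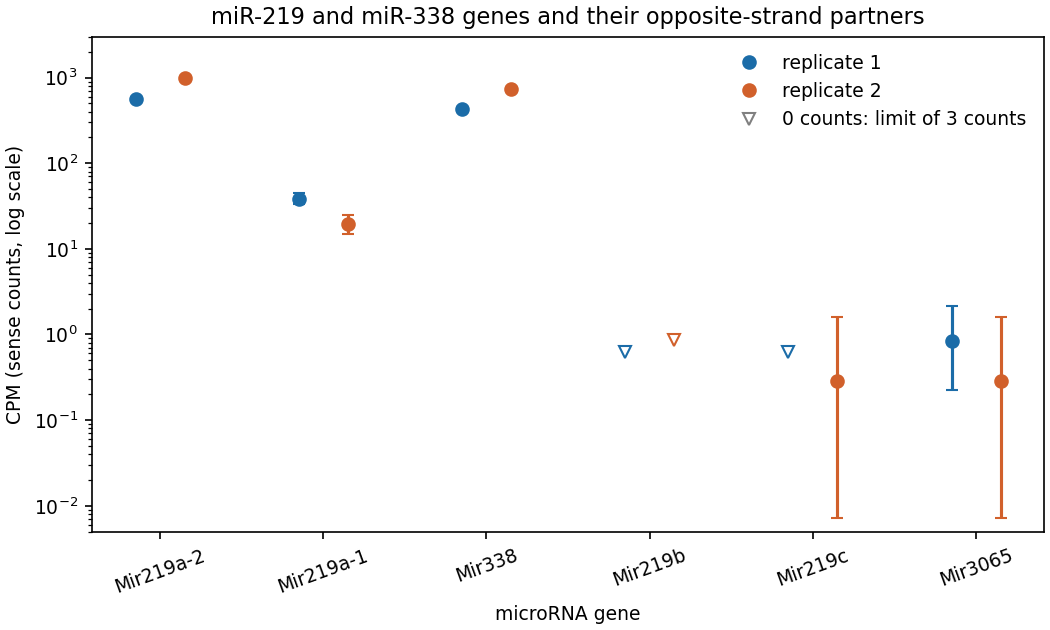
CPM of each gene in each library on a log axis, with 95% exact intervals of counting error as bars and open triangles for the limit that 0 counts allow. Mir219a-2 and Mir338 lie at 429.8 CPM or above in both libraries, Mir219a-1 lies between 19.5 and 38.4 CPM, and the 3 partners lie below 1 CPM.

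Levels of different microRNAs are compared as counts and not per length. This assumes that each read comes from a whole small RNA and not from a fragment of the hairpin, which counts per gene cannot show. Differences between microRNAs in how well they were captured were not analysed. The ratio of Mir219a-2 to Mir338 was 1.32 in replicate 1 (95% interval 1.25 to 1.40) and 1.36 in replicate 2 (1.29 to 1.43), so these intervals overlap. Mir219a-2 was 14.8 times as abundant as Mir219a-1 in replicate 1 (12.7 to 17.3) and 50.9 times in replicate 2 (40.1 to 65.8), and these intervals do not overlap. Both ratios of the miR-219a genes leave out reads within the common stretch, so they compare the remaining products and not miR-219a-5p. The files count hairpin genes, and whether the counted reads came from the 3' arm or from miR-219a-5p products with further bases cannot be told apart. The level of miR-219a as a whole can lie above the sum of the genes.

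The partners were at or near 0. Mir219b had 0 counts in both libraries. Against the limit of 3 counts per library, Mir219a-2 was 912.7-fold higher in replicate 1 and 1155-fold higher in replicate 2. The exact intervals of these ratios began at 741.7 and 938.5. Mir219c had 0 counts in replicate 1 and 1 in replicate 2, beside 185 and 68 counts of Mir219a-1. Against the same limit, Mir219a-1 was 61.7-fold higher in replicate 1, where the exact interval began at 49.7. In replicate 2 the ratio was 68 (interval 11.8 to 2725). All these ratios leave out reads within the common stretch, on either strand, as such reads fit both loci.

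Mir3065 had 4 counts in replicate 1 (0.831 CPM) and 1 in replicate 2 (0.286 CPM). Mir338 exceeded it 517.5 times in replicate 1 (interval 201.8 to 1901) and 2551 times in replicate 2 (457 to 100798). Over both libraries Mir3065 held 0.108% of the reads of the pair (95% exact interval 0.0351 to 0.252). On genes with no opposite partner, 0.00362% of reads in replicate 1 and 0.00295% in replicate 2 lay on the antisense strand, below that interval. The interval joins both libraries, and in replicate 2 alone Mir3065 rested on 1 read. The antisense shares are sums over many genes and do not show the spread between them.

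Among all 2202 genes, 32 pairs overlap on opposite strands, and 27 of them had at least 10 counts. Of the 23 pairs with at least 100 counts outside the miR-219 and miR-338 loci, 21 had under 1% of reads on the strand with fewer reads, and 17 had 0 there. The 3 with the most counts, Mirlet7e with Gm25927, the endothelial microRNA Mir126a with Mir126b, and Mir191 with Gm24083, each had 0 counts on the second strand. At the other end, Mir24-1 and Mir3074-1, named after their values were seen, had 44.7% of their reads on Mir3074-1 in replicate 1 and 10.5% in replicate 2. A mature sequence of Mir24-1 also occurs at another gene, and reads that fit both are left out of these shares. The strong imbalance of the miR-219 and miR-338 pairs was thus common to most such pairs. Between the libraries the strand balance of 1 of the 27 pairs differed by Fisher's exact two-sided test with Benjamini-Hochberg adjustment, which is 3.7% of pairs. That pair was Mir24-1 with Mir3074-1. For the pairs of Mir219a-2, Mir219a-1 and Mir338 the adjusted p was 1 each. With 0 to 4 reads on the second strand, a difference was not detectable at this depth.

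**Figure D3:**
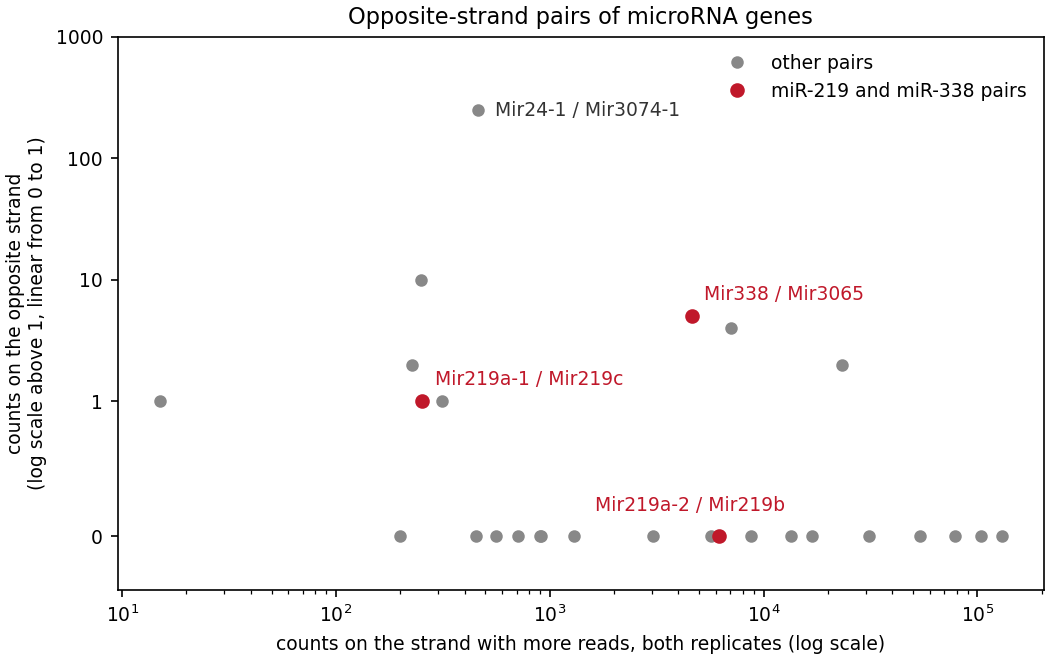
Counts on the 2 strands of each pair of overlapping microRNA genes, summed over both libraries, for the 27 pairs with at least 10 counts. Red points are Mir219a-2 with Mir219b at 0 opposite counts, Mir219a-1 with Mir219c at 1, and Mir338 with Mir3065 at 5, and grey points are the other pairs, most of them at 0.

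The strand of the reads decided whether these genes were counted at all. In the deposited unstranded column, where a read on overlapping genes of both strands is ambiguous, Mir219a-2 and Mir338 had 0 counts in both libraries. Mir219a-1 had 0 and 1 there. The column's ambiguous total was 281108 reads in replicate 1 and 212068 in replicate 2. All pairs together held 281129 and 212088 sense counts, and the 6 genes made up 1.78% and 2.87% of these. The antisense counts of Mir219b, 2738 and 3464, and of Mir3065, 2070 and 2551, equalled the sense counts of their partners. Mir219c had 185 and 67 antisense counts, beside 185 and 68 sense counts of Mir219a-1.

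The remaining question was how far the libraries differed for these genes. Mir219a-2 and Mir338 were higher in replicate 2 by a log2 ratio of 0.80 (95% interval 0.73 to 0.87) and 0.76 (0.68 to 0.85). Mir219a-1 was lower in replicate 2 by a log2 ratio of -0.97 (-1.40 to -0.57). A gene was called at an adjusted p below 0.05 in an exact two-sided binomial test over all genes, if the log2 ratio was also 1 or more in absolute size. By this rule 0 of the 3 testable genes were called, beside 18.7% of all 540 genes with at least 10 counts, and Mir219b, Mir219c and Mir3065 were too low to test. Mir219a-1 was called once library sizes were scaled by TMM (log2 ratio -1.06) or by DESeq2 (-1.14). Over all 540 genes, these scalings called 96 and 101.

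By the adjusted p alone all 3 passed, beside 55.7% of all tested genes. The adjusted p in the exact test was 1.01e-104 for Mir219a-2, 2.81e-71 for Mir338 and 2.02e-06 for Mir219a-1. That test holds counting error only and compares these libraries, not conditions. When the common spread between the libraries was added (edgeR exact test, biological coefficient of variation 38.6%), the unadjusted p was 0.321, 0.345 and 0.245 and the adjusted p was 1 for each. That spread was estimated from these same libraries, taken as replicates, so a gene of typical spread could not pass this test. The coefficients of variation of the 3 genes, 38.3%, 36.6% and 46.3%, lay near that common value. For them the edgeR test therefore cannot decide whether the libraries differ. Under that test 37 genes had an unadjusted p below 0.05 and 7 passed the adjustment. An absolute log2 ratio larger than that of Mir219a-2 was found in 181 of the 540 genes, for Mir338 in 187 and for Mir219a-1 in 136.

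**Figure D4:**
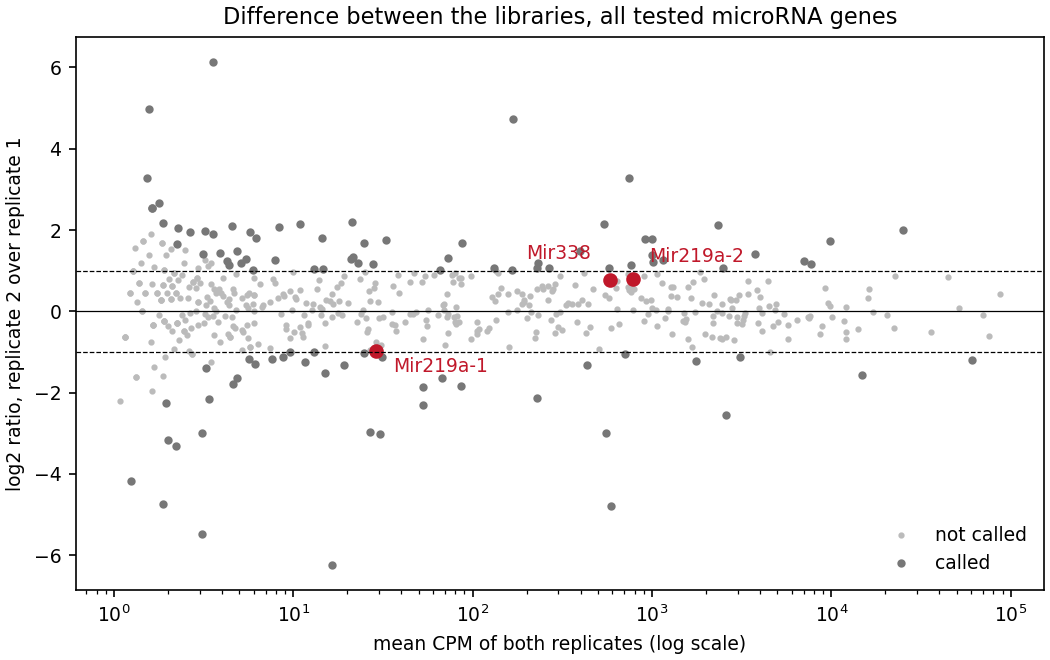
Log2 ratio of replicate 2 over replicate 1 against mean CPM (log axis) for the 540 tested genes, with called genes in dark grey and dashed lines at log2 ratios of 1 and -1. Mir219a-2 and Mir338 lie next to each other at 0.80 and 0.76, and Mir219a-1 lies at -0.97, just inside the lower dashed line.

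The opposite direction of the miR-219a genes was tested as a shift in their balance, a comparison chosen after their values were seen. Mir219a-1 made up 6.33% of the reads of both genes in replicate 1 and 1.93% in replicate 2, a difference between the log2 ratios of -1.78. By Fisher's exact two-sided test over the 25 pairs of genes that have a mature sequence in common and at least 10 counts each, the adjusted p was 3.6e-19. Of these pairs 64% passed, and the size of the shift ranked as number 3, beside a median absolute difference of 0.71. This test too holds counting error only.

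The genes nearest in level over the 2 libraries, by distance of log2(CPM + 1), were Mir455, Mir1249 and Mir31 for Mir219a-2. Mir455 had 558 and 1012 CPM, at a distance of 0.0394. For Mir338 they were Mir222, Mir150 and Mir326, with Mir222 at 478 and 802 CPM and a distance of 0.205. With 2 libraries this describes levels only. In replicate 1 alone, none of the 3 was among the 3 nearest to Mir338, and in replicate 2 alone Mir455 was the only one of the 3 that was among the nearest to Mir219a-2.

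Other microRNAs reported to act in the oligodendrocyte lineage, a list of 21 genes, had mean levels from 0 CPM (Mir297c) to 7704 CPM (Mir125a). The 3 most abundant were Mir125a at 7704 ± 4147 CPM, Mir138-1 at 5734 ± 1892 CPM and Mir23a at 5056 ± 662 CPM (SD, n = 2 for each). Genes of this list are active in other cells too. Of the 19 tested, 4 were called higher in replicate 2 and 0 lower. Of all 540 tested genes, 62 were called higher and 39 lower, or 18.7% in either direction. The called genes were Mir125a (log2 ratio 1.16), Mir145a (1.18), Mir27b (1.21) and Mir204 (1.79), of which Mir145a is also a mural cell marker and Mir204 a choroid plexus marker. Mir125a was not called with DESeq2 size factors, and 0 were called with the common spread added, in the edgeR exact test. The edgeR test took its spread from the same libraries, so it could not call a gene of typical spread. The median log2 ratio of the list was 0.19, beside 0.17 over all tested genes. Mir219a-2 and Mir338 lay above that median, and Mir219a-1 below it.

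Marker microRNAs of other cells were compared between the same libraries. Of all 540 tested genes, 62 were called higher in replicate 2 and 39 lower, or 18.7% in either direction. The 7 choroid plexus and ciliated cell markers summed to 2582 CPM in replicate 1 and 5333 CPM in replicate 2, and 3 of the 6 tested were called higher. The 9 neuronal markers summed to 15153 and 23283 CPM, with 1 of 7 tested called higher. Mir137 (5316 and 4111 CPM) and Mir129-1 (298 and 282 CPM) were lower in replicate 2, and the other neuronal markers were higher. The 3 red blood cell markers summed to 1229 and 76.4 CPM, with 2 of 3 called lower in replicate 2. The endothelial markers Mir126a and Mir126b summed to 14888 and 9301 CPM with Mir126b at 0, and none was called. The 3 mural cell markers summed to 3962 and 4390 CPM with Mir145b at 0, and 1 of 2 tested was called higher. The 4 microglial and myeloid markers summed to 123 and 131 CPM, with 1 of 3 tested called higher. With DESeq2 size factors the mural and the microglial sums lay lower in replicate 2, at log2 ratios of -0.02 and -0.08. With the common spread added, in the edgeR exact test, the red blood cell marker Mir451a was the only one of these markers called. As its spread came from these same libraries, that test could not call a marker of typical spread. The part of these cells in the values of Mir219a-2, Mir338 and Mir219a-1 was not tested.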

How the data were processed

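The authors deposited raw read counts per microRNA gene, 1 file per library, in an unstranded and 2 stranded columns. Per the submitters' notes deposited with them, the build was mm10 and the annotation GENCODE M21. Any trimming, the aligner and the counter were not given in the sources used here. Columns 3 and 4 were read as sense and antisense. All 2202 identifiers matched GENCODE M21. CPM used the 4815761 and 3495401 sense counts on genes. The lines of totals (unmapped, several places, outside genes, ambiguous) were left out of library sizes.

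For each gene with 10 or more counts in all, the libraries were compared by a two-sided exact binomial test against the split of the library totals, adjusted by Benjamini-Hochberg over all 540. Log2 ratios had 0.5 counts added. edgeR's quasi-likelihood test needs replicates within each side and could not be fitted. The common spread of its exact test was estimated over 427 genes from the same libraries, taken as replicates of 1 group. No genome sequence was used, so 22-base windows were searched, on both strands, in GENCODE M21 transcripts in place of the genome. Gene positions are those of GENCODE M21. The binomial comparison of the libraries was tested on simulated counts with known changes and counting error only.

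The members and lists were chosen with earlier results of these data known. Named genes were the 6 members, their hosts and nearest genes, the 3 genes nearest in level to Mir219a-2 and Mir338, the 3 most abundant and the called genes of the lineage list, and the 3 opposite-strand pairs with the most counts. The marker genes and the pair Mir24-1 with Mir3074-1 were named outside this rule, after their values were seen. Alternatives covered scaling, filters, counts added, the ratio minimum, the spread, strand, window length and each replicate left out. The tools were edgeR 4.0.16 and DESeq2 1.42.0 in R 4.3.3, RNAfold of ViennaRNA 2.7.2, and SciPy 1.17.1, Biopython 1.88, pandas 2.3.3 and numpy 2.4.6 in Python 3.11.15.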

Additional observations from a re-analysis of the deposited data

How the results depend on the processing

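With all reads of each library in the denominator, the mean levels were 282 per 1000000 reads for Mir219a-2, 209.9 for Mir338 and 10.8 for Mir219a-1, and the summed share was 0.0503%. In the unstranded column the levels were 0 for Mir219a-2, Mir338 and Mir3065 and 0.152 CPM for Mir219a-1, so no ratio could be tested there. Leaving out 1 replicate gave 569 to 991 CPM for Mir219a-2, 429.8 to 729.8 for Mir338, 19.5 to 38.4 for Mir219a-1, 0.286 to 0.831 for Mir3065 and 0 to 0.286 for Mir219c. It gave shares of the pair of 0.0392% to 0.193% for Mir3065 and 0% to 1.45% for Mir219c, and summed shares of 0.104% to 0.174%. Of the 3 genes nearest in level, 1 to 2 were shared for Mir219a-2 and 0 to 2 for Mir338 when 1 replicate was left out.

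The directions of Mir219a-2, Mir338 and Mir219a-1 held under every scaling and number of added counts that was tried. Mir219a-1 was called with TMM sizes (log2 ratio -1.06), with DESeq2 size factors (-1.14) and with all reads as denominator (-1.15). Of the 3 testable genes, 1 was thus called under TMM and 1 under DESeq2 scaling, beside 96 and 101 of all 540 tested genes. All 3 testable genes were called by the adjusted p alone, and also with a ratio minimum of 1.5-fold, at unchanged log2 ratios of 0.80, 0.76 and -0.97. Over all genes these rules called 301 and 174, against 101 in the comparison as reported, 67 with at least 50 counts and 7 in the edgeR test with the common spread. The share of called genes that were higher in replicate 2 was 61.4% by library totals, 52.1% under TMM and 45.5% under DESeq2 scaling, and the median log2 ratio of tested genes was 0.17, 0.09 and 0.0051. With windows of 25 bases, 100% were unique in Mir219a-2 and in Mir219a-1. With windows of 18 bases 93.8% were unique in Mir219a-2, 94.6% in Mir219a-1 and 96.3% in Mir338. No paired analysis was possible because the labels give 1 group. No ratio between the libraries exists with a replicate left out.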
